A study of Bos taurus with 6 samples.

Results

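Transcripts of the translation initiation and elongation factors were measured in bovine blastocysts produced in vitro, and compared between embryos of low and of high survival after vitrification. The family was taken as every gene of the deposited table whose symbol starts with EIF or EEF followed by a digit, which gave 52 of 9537 genes. They were 41 initiation factors with their partners, 8 EEF genes and 3 kinases of the initiation factor eIF2, which are described apart. The choice went by symbol alone, though with earlier results of these data known, and all 52 genes stood in the table that was analysed. RefSeq's genes on assembly ARS-UCD2.0 include 65 protein-coding ones with such symbols. The other 13, among them EIF4G1, EIF5B, EIF3F, EIF2AK4 and EEF1A2, were not analysed here.

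Each group had 3 libraries of total RNA. The embryos were Bos taurus blastocysts grown in SOFaaci, a medium for bovine embryo culture, and the groups differed in the cryosurvival given by their labels. The sample titles also carry an unexplained code, V for the high and NV for the low group, so anything else that this code marks cannot be told apart from cryosurvival. The labels used here do not say the breed, the number of embryos in a library, when RNA was taken relative to vitrification, or whether replicates are separate cultures. The p-values therefore measure only the spread between these libraries, which may be technical.

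Translation starts when eIF2, bound to GTP and the initiator tRNA, joins the small ribosomal subunit together with eIF1, eIF1A, eIF3 and eIF5, and this complex is loaded onto a capped mRNA by eIF4F. Stress kinases phosphorylate eIF2, which blocks its recycling by eIF2B and lowers protein synthesis. The eIF4E-binding proteins hold the cap-binding protein eIF4E away from eIF4F unless mTORC1 phosphorylates them. In elongation, eEF1A brings aminoacyl-tRNAs to the ribosome and eEF2 moves the ribosome along the mRNA, and the kinase eEF2K inactivates eEF2. In the blastocyst, these factors serve an embryo that has begun to make its proteins from its own transcripts.

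The values are CPM, read counts divided by a scaled library size, and are not divided by transcript length, so levels of different genes are not ranked against each other. Reads in the table ran from 14651477 to 19467022 per library, and 1 read was worth 0.0499 to 0.0751 CPM. Library 2 of the low group had the fewest reads and stood apart, being the highest or the lowest of the 6 libraries for 69.9% of all genes. Markers of the blastocyst lineages were present: POU5F1, NANOG and SOX2 of the inner cell mass summed to 679 to 989 CPM in low and 759 to 863 CPM in high libraries. The trophectoderm markers CDX2, GATA3, TFAP2C, KRT8 and KRT18 summed to 25710 to 35642 against 30045 to 33210 CPM. SOX17 of the hypoblast was at 5.03 to 7.36 CPM in low and 2.33 to 5.51 CPM in high libraries, while the hypoblast marker GATA6 was not measured. Of 11 genes fixed as cumulus and granulosa markers 5 were measured, FSHR, CYP19A1, INHBA, STAR and PTGS2. Their sums were 965 to 1243 CPM in low and 995 to 1176 CPM in high libraries. HAS2, PTX3, TNFAIP6, GREM1, AMH and VCAN of this list were not in the table analysed. A sum does not show which measured gene carries it. ZP3 and TNP1, the 2 of 6 oocyte and sperm genes measured, summed to 3.19 to 9.16 against 4.51 to 5.71 CPM. Low library 2 had the highest CPM sum of the inner cell mass, trophectoderm, hypoblast and oocyte and sperm lists. Its reads were 1.10 times its scaled library size, against 0.961 to 0.996 times in the other libraries. Its CPM are therefore larger, relative to its own reads, than those of the other libraries. Whether low library 2 also ranks highest by the share of its reads on these lists was not tested. The part of these cell types in the results below was not tested.

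The log2 differences of the 49 factors without the eIF2 kinases had quartiles of -0.07 and 0.20. With 3 libraries a group this does not show that levels were alike, and some values near 0 moved without low library 2. The largest difference was that of EEF2K, at 3.16 times the high level in low cryosurvival embryos. Of the 49 factors without the eIF2 kinases, 31 had a higher and 18 a lower mean log2 level in low cryosurvival, with a median log2 difference of 0.07 (low minus high, on the log2(CPM + 1) scale). Over all 9537 genes this median was 0.0002, with 50.0% higher. Without low library 2 the factors divided into 26 higher and 23 lower, with a median of 0.01. Limma, a moderated linear model fitted to all genes with Benjamini-Hochberg adjustment, called 0 of the 52 members at an adjusted p of 0.05, as it called 0.0% of all genes. At an unadjusted p below 0.05 it held 4 members higher in low, which is 7.69% against 6.27% of all genes, and 0 lower, against 5.7% of all genes. Limma-voom on the recovered reads also called 0 members. The authors' deposited table called 1 member, EEF2K, higher in low, where 1.2% of all genes were called and 0.912% were called higher in low. In whole embryos, fewer cells of a type and less RNA per cell cannot be told apart.

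**Figure D1:**
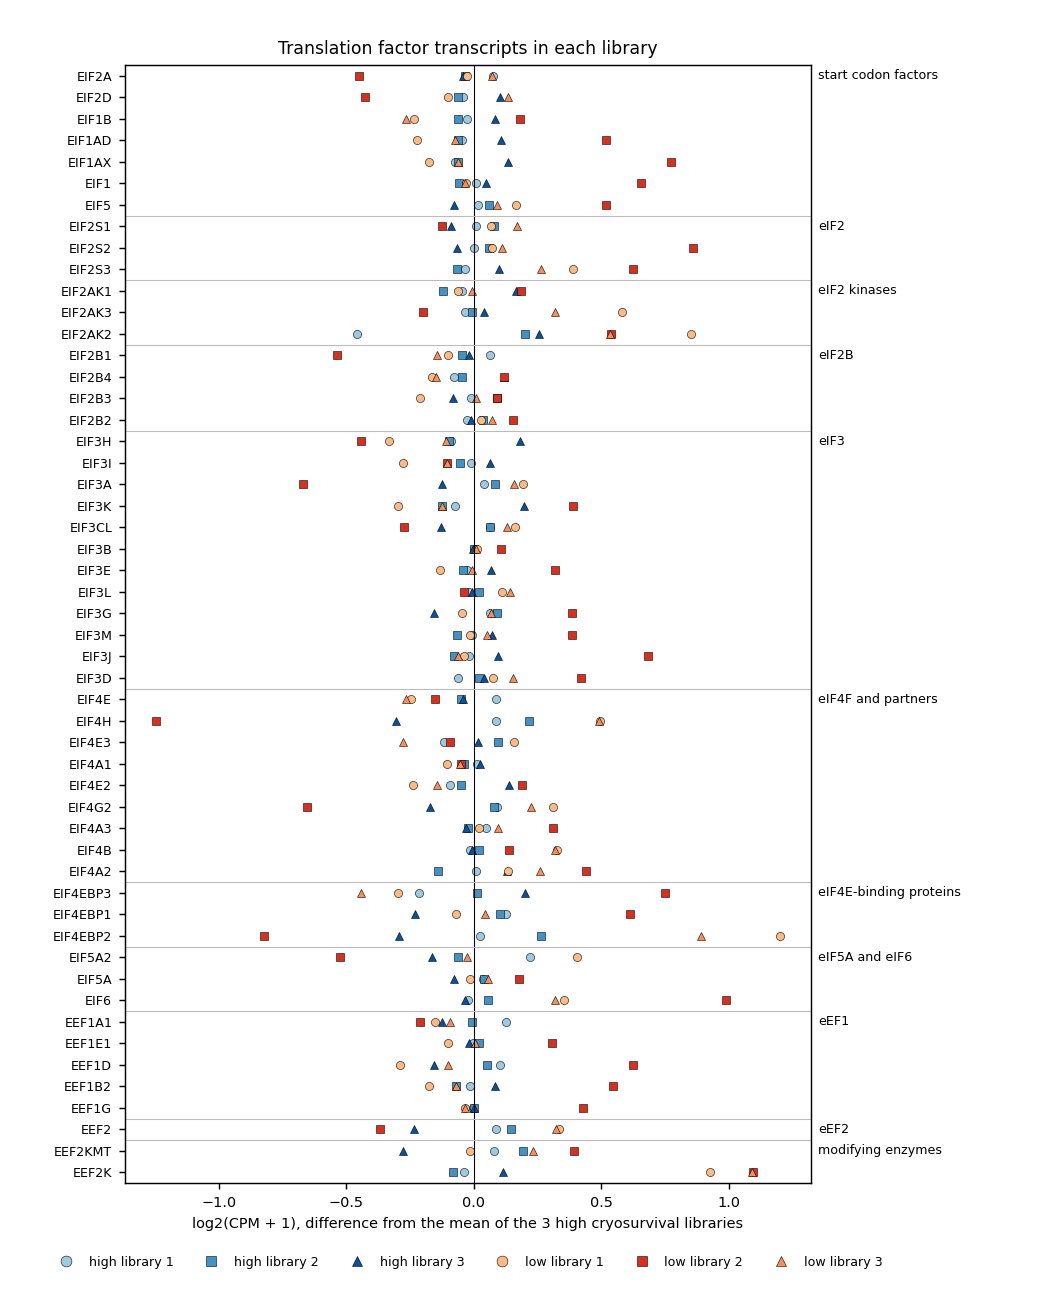
Each row is 1 member, grouped by role, and each point is 1 library, placed by its log2(CPM + 1) value minus the mean of the 3 high cryosurvival libraries. Blue points are high and orange to red points low libraries. The 3 low libraries of EEF2K lie together far to the right, while the red square of low library 2 is at one end of the row for 44 of 52 members.

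Low library 2 was the highest or the lowest library for 44 of the 52 members, or 84.6%, against 69.9% of all genes. It was the highest for 29 of the members, and for 3285 of all 9537 genes. It lay above the mean of low libraries 1 and 3 for 65.4% of the members, against 48.4% of all genes. Low libraries 1 and 3 were close to each other, with a median distance of 0.09 on the log2(CPM + 1) scale over the members. Low library 2 lay a median of 0.38 from their mean, against 0.42 over all genes. The coefficient of variation over 3 libraries had a median of 16.4% in low and 6.20% in high libraries, against 20.4% and 8.52% over all genes. It was larger in low for 45 of 52 members, or 86.5%, against 79.8% of all genes. What sets low library 2 apart was not tested.

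EEF2K encodes the kinase that phosphorylates and inactivates eEF2. Its level was 2.70, 3.15 and 3.14 CPM in low libraries 1, 2 and 3, and 0.896, 0.839 and 1.11 CPM in high libraries 1, 2 and 3. The groups did not overlap, and the low libraries were close together. These values rest on few reads, 54, 42 and 60 in the low and 16, 16 and 20 in the high libraries. The mean of low cryosurvival was 3.00 ± 0.261 CPM, and that of high cryosurvival 0.948 ± 0.142 CPM (SD, n = 3 each). Limma gave a log2 difference of 1.04 ± 0.12 (SE), with a 95% interval of 0.74 to 1.33 and an adjusted p of 0.0812. On the recovered reads, where no pseudocount of 1 shrinks a low gene, limma-voom gave 1.63 (adjusted p = 0.156). The authors' deposited table gave a log2 fold of 1.652, low over high, with an adjusted p of 0.002. Limma passed it at a pseudocount of 0.1 (adjusted p = 0.0452) and without low library 2 (0.0113). Over all alternatives its adjusted p ran from 0.0113 to 0.550, and the log2 difference was positive in each.

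The target of this kinase, EEF2, is the GTPase that drives translocation of the ribosome. EEF2 was at 4073, 2505 and 4042 CPM in low libraries 1, 2 and 3 and at 3435, 3577 and 2750 CPM in high libraries 1, 2 and 3. The groups overlapped, and low library 2 and high library 3 were the lowest of their groups. Limma gave a log2 difference of 0.10, with an interval of -0.44 to 0.63 (adjusted p = 0.939), and 0.33 without low library 2 (adjusted p = 0.129). EEF2KMT, a methyltransferase of eEF2, was at 16.6, 22.4 and 19.9 CPM in low and 17.8, 19.3 and 13.7 CPM in high libraries. Its groups overlapped (log2 difference 0.20, adjusted p = 0.766, or 0.11 without low library 2).

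The eEF1 genes encode the factor that delivers aminoacyl-tRNAs and the subunits of its nucleotide exchange complex. EEF1A1, the delivering GTPase, whose many processed copies may share its reads, was at 5936, 5698 and 6191 CPM in low and 7202, 6572 and 6053 CPM in high libraries. The groups overlapped only between low library 3 and high library 3, and the log2 difference was -0.15 (interval -0.44 to 0.14, adjusted p = 0.746). The exchange subunits EEF1B2, EEF1D and EEF1G and the related scaffold gene EEF1E1 had log2 differences from 0.07 to 0.12 with all libraries. In each of these 4 genes low library 2 was the highest of the 6 libraries and low library 1 the lowest. EEF1D was at 398, 750 and 453 CPM in low and 523, 504 and 436 CPM in high libraries. Without low library 2 all 5 eEF1 genes had negative log2 differences, from -0.19 for EEF1D to -0.03 for EEF1G, with 0 called by limma.

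Among the initiation factors, eIF2 had the highest median log2 difference of the complexes with more than 1 subunit, 0.35, and 3 of 3 subunits had a higher mean in low. The median was 0.12 without low library 2, and 0.075 with high library 3 left out as well. EIF2S3, the gamma subunit that binds GTP and the initiator tRNA and is encoded on the X chromosome in mammals, was at 278, 327 and 255 CPM in low libraries 1, 2 and 3. In high libraries it was at 207, 202 and 227 CPM. All low libraries were above all high ones, in a ratio of means of 1.35. Limma gave 0.43 ± 0.14 (SE), unadjusted p = 0.0188 and adjusted p = 0.304. Without low library 2 the difference was 0.33 (adjusted p = 0.0682). EIF2S2, the beta subunit, was at 334, 577 and 344 CPM in low and 318, 332 and 304 CPM in high libraries. Its groups did not overlap, though low library 1 was only just above high library 2. The log2 difference was 0.35 with all libraries (adjusted p = 0.649), and 0.09 when low library 2 was left out (adjusted p = 0.489). EIF2S1, the alpha subunit that stress kinases phosphorylate, had both its lowest level, 81.9 CPM in library 2, and its highest level, in library 3, within the low group (log2 difference 0.04, adjusted p = 0.959, or 0.12 without low library 2).

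**Figure D2:**
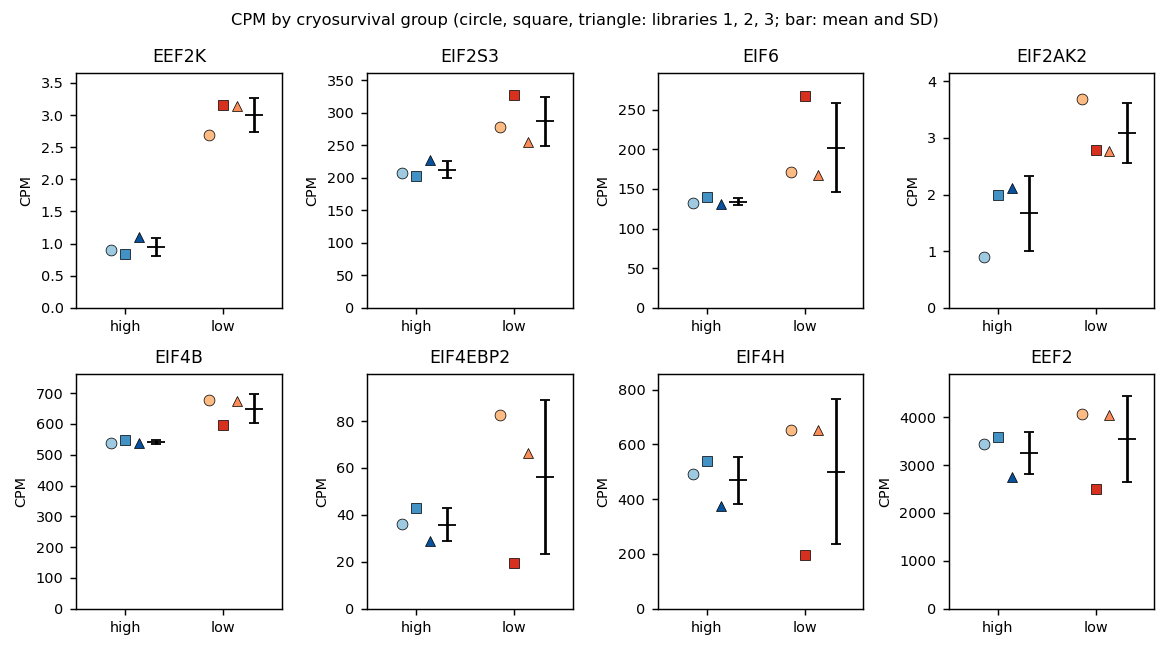
CPM of 8 members in the 3 high and 3 low cryosurvival libraries, on linear axes from 0. Symbols mark libraries 1, 2 and 3, and bars give the mean and SD of 3 libraries. The groups are separate for EEF2K, EIF2S3, EIF6, EIF2AK2 and EIF4B, while for EIF4EBP2, EIF4H and EEF2 the square of low library 2 lies below all high libraries and the other low libraries above them.

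The eIF2 kinases phosphorylate the alpha subunit, each in answer to another stress. EIF2AK2, which encodes the double-stranded RNA kinase PKR, was at 3.70, 2.78 and 2.78 CPM in low libraries and at 0.896, 1.99 and 2.11 CPM in high libraries. The groups did not overlap, and high library 1 was the lowest by far. The reads were few, 74, 37 and 53 in low and 16, 38 and 38 in high libraries. Limma gave 0.64 ± 0.22 (SE), unadjusted p = 0.0233 and adjusted p = 0.324. Without high library 1 the log2 difference was 0.41, the lowest with any library left out.

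EIF2AK3 encodes PERK, the kinase of the endoplasmic reticulum stress response. It was at 50.6, 29.1 and 42.0 CPM in low libraries 1, 2 and 3 and at 32.7, 33.3 and 34.5 CPM in high libraries. Low libraries 1 and 3 were above all high libraries and low library 2 was below them. The log2 difference was 0.23 (interval -0.26 to 0.72, adjusted p = 0.773), and 0.45 without low library 2 (adjusted p = 0.0418). EIF2AK1, the heme-regulated kinase HRI, was at 67.1, 79.8 and 69.7 CPM in low and 67.6, 64.2 and 78.6 CPM in high libraries. Its groups overlapped (log2 difference 0.04, interval -0.29 to 0.37, adjusted p = 0.959, or -0.032 without low library 2). The median of the 3 kinases was 0.23, and it was 0.45 without low library 2 and 0.092 without low library 1.

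The nucleotide exchange factor eIF2B, which recharges eIF2 with GTP, had 4 measured subunits. EIF2B1, the alpha subunit, was at 44.5, 32.6 and 43.1 CPM in low and 50.0, 46.1 and 47.1 CPM in high libraries. Each low library was below each high one, with a log2 difference of -0.26 (interval -0.62 to 0.10, adjusted p = 0.603), and -0.12 without low library 2. EIF2B2, the beta subunit, was at 79.2, 86.4 and 81.7 CPM in low and 76.2, 79.6 and 77.0 CPM in high libraries. The groups overlapped between low library 1 and high library 2 (log2 difference 0.09, adjusted p = 0.865). EIF2B3 and EIF2B4 had log2 differences of -0.04 and -0.07, or -0.10 and -0.16 without low library 2.

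The list of start codon factors, in which EIF1AD, EIF2A and EIF2D were also counted, gave 4 members higher and 3 lower in mean. EIF5, which triggers GTP hydrolysis by eIF2, was at 615, 788 and 585 CPM in low and 555, 573 and 520 CPM in high libraries. The groups did not overlap, and the log2 difference was 0.26 (interval -0.10 to 0.62, adjusted p = 0.598), or 0.13 without low library 2. EIF1, EIF1AX, EIF1AD and EIF1B, of which the first 2 encode small scanning factors, were highest in low library 2. EIF1AX was at 423 CPM there, while the other 5 libraries ran from 219 to 272 CPM. EIF2A and EIF2D, which can bring initiator tRNA without eIF2, went the other way in that library, at 84.6 CPM against 112 to 122 CPM elsewhere for EIF2A.

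The scaffold complex eIF3 had 12 measured subunits, 8 with a higher and 4 with a lower mean in low, and a median log2 difference of 0.05, or 0.011 without low library 2. EIF3D, a cap-binding subunit, was at 599, 761 and 631 CPM in low and 544, 576 and 584 CPM in high libraries. Its groups did not overlap, with a log2 difference of 0.22 (interval -0.10 to 0.54, adjusted p = 0.630), or 0.11 without low library 2. EIF3H was at 248, 230 and 290 CPM in low and 294, 292 and 355 CPM in high libraries, and each low library was below each high one. The log2 difference of EIF3H was -0.29 (interval -0.64 to 0.06, adjusted p = 0.523). EIF3I, a subunit with WD repeats, was at 275, 310 and 309 CPM in low and 331, 321 and 348 CPM in high libraries, again without overlap (-0.16, adjusted p = 0.696). EIF3B, the RNA-binding scaffold subunit, varied least of the 12 relative to its mean in both groups. Its mean was 501.2 ± 1.09 CPM in high libraries and 517 ± 20.6 CPM in low ones (SD, n = 3 each).

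Low library 2 was above the mean of low libraries 1 and 3 for 8 eIF3 subunits and below it for 4. Its median distance from that mean was 0.37 over the subunits, against 0.42 over all genes. The subunits named next were chosen after their values were seen. The largest subunit gene EIF3A was at 276 CPM there and at 403 to 504 CPM in the other 5 libraries. EIF3J, a loosely bound subunit, was at 246 CPM there against 145 to 163 CPM in the other 5 libraries. EIF3CL is named after a copy of EIF3C, although the RefSeq genes used here list no protein-coding EIF3C. It followed EIF3A, at 380 CPM against 420 to 515 CPM. EIF3K followed EIF3J, at 452 CPM against 281 to 397 CPM. Of the 12 subunits, 11 had their highest or lowest value in low library 2, or 91.7%, against 69.9% of all genes.

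The eIF4F factors bind the cap and unwind the leader of the mRNA. EIF4A1, its helicase, which has a close paralog in EIF4A2, was at 1641, 1706 and 1699 CPM in low and 1781, 1718 and 1798 CPM in high libraries. The groups did not overlap, but the log2 difference was -0.07 (interval -0.33 to 0.19, adjusted p = 0.895). EIF4A2 was at 192, 238 and 210 CPM in low and 176, 159 and 192 CPM in high libraries, with low library 1 only just above high library 3 (0.28, adjusted p = 0.520). EIF4E, the cap-binding protein, was at 158, 169 and 156 CPM in low and 200, 181 and 182 CPM in high libraries. Each low library was below each high one, and the log2 difference was -0.22 (interval -0.49 to 0.05, adjusted p = 0.540). EIF4B, which stimulates the helicase, was at 679, 596 and 675 CPM in low and 536, 549 and 539 CPM in high libraries, also without overlap. Its log2 difference was 0.26 (adjusted p = 0.452), and 0.32 without low library 2 (adjusted p = 0.0479).

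EIF4H, a further cofactor of the helicase, had low library 2 farthest from the rest of any member except EIF4EBP2 within the low group. It was at 654, 195 and 652 CPM in low libraries 1, 2 and 3 and at 492, 539 and 374 CPM in high libraries. Limma gave -0.09 with all libraries (interval -1.21 to 1.04, adjusted p = 0.980), and 0.49 when low library 2 was left out (adjusted p = 0.0808). EIF4G2, a scaffold that works without the cap-binding protein, was also lowest in low library 2, at 930, 476 and 877 CPM in low and 798, 792 and 666 CPM in high libraries (-0.04, adjusted p = 0.985). The log2 difference of EIF4G2 was 0.27 without low library 2 (adjusted p = 0.141).

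The eIF4E-binding proteins restrain eIF4F. EIF4EBP2 was at 82.7, 19.6 and 66.6 CPM in low libraries 1, 2 and 3 and at 36.1, 42.8 and 28.7 CPM in high libraries. Low libraries 1 and 3 were the highest and low library 2 the lowest of all 6. With all libraries the log2 difference was 0.42, with an interval of -0.79 to 1.63 (adjusted p = 0.855). Without low library 2 it was 1.05, with an interval of 0.62 to 1.48 (adjusted p = 0.0231). EIF4EBP1 was at 80.0, 129 and 86.8 CPM in low and 91.7, 90.4 and 71.5 CPM in high libraries, with low library 2 on the opposite side. Limma gave 0.20 with all libraries and -0.01 when low library 2 was left out (adjusted p = 0.829 and 0.958). EIF4EBP3 had its highest value in low library 2 as well, 19.5 CPM against 7.96 to 13.0 CPM in the others (log2 difference 0.0041, adjusted p = 0.998). Without that library EIF4EBP3 had a log2 difference of -0.37 (interval -0.70 to -0.041, adjusted p = 0.111).

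EIF6, which keeps the large ribosomal subunit from joining too early and serves in its assembly, was at 172, 267 and 167 CPM in low libraries 1, 2 and 3. In high libraries it was at 132, 139 and 131 CPM, so the groups did not overlap. Limma gave 0.56 ± 0.20 (SE), unadjusted p = 0.0276 and adjusted p = 0.339, and 0.34 without that library (adjusted p = 0.0472). EIF5A, the hypusine-bearing factor that helps the ribosome past difficult peptide bonds, was at 1177, 1346 and 1235 CPM in low and 1220, 1223 and 1126 CPM in high libraries. The groups overlapped (log2 difference 0.07, interval -0.21 to 0.36, adjusted p = 0.899, or 0.021 without low library 2). EIF5A2, its paralog, rested on 8 to 41 reads per library (log2 difference -0.05, or 0.19 without low library 2).

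**Figure D3:**
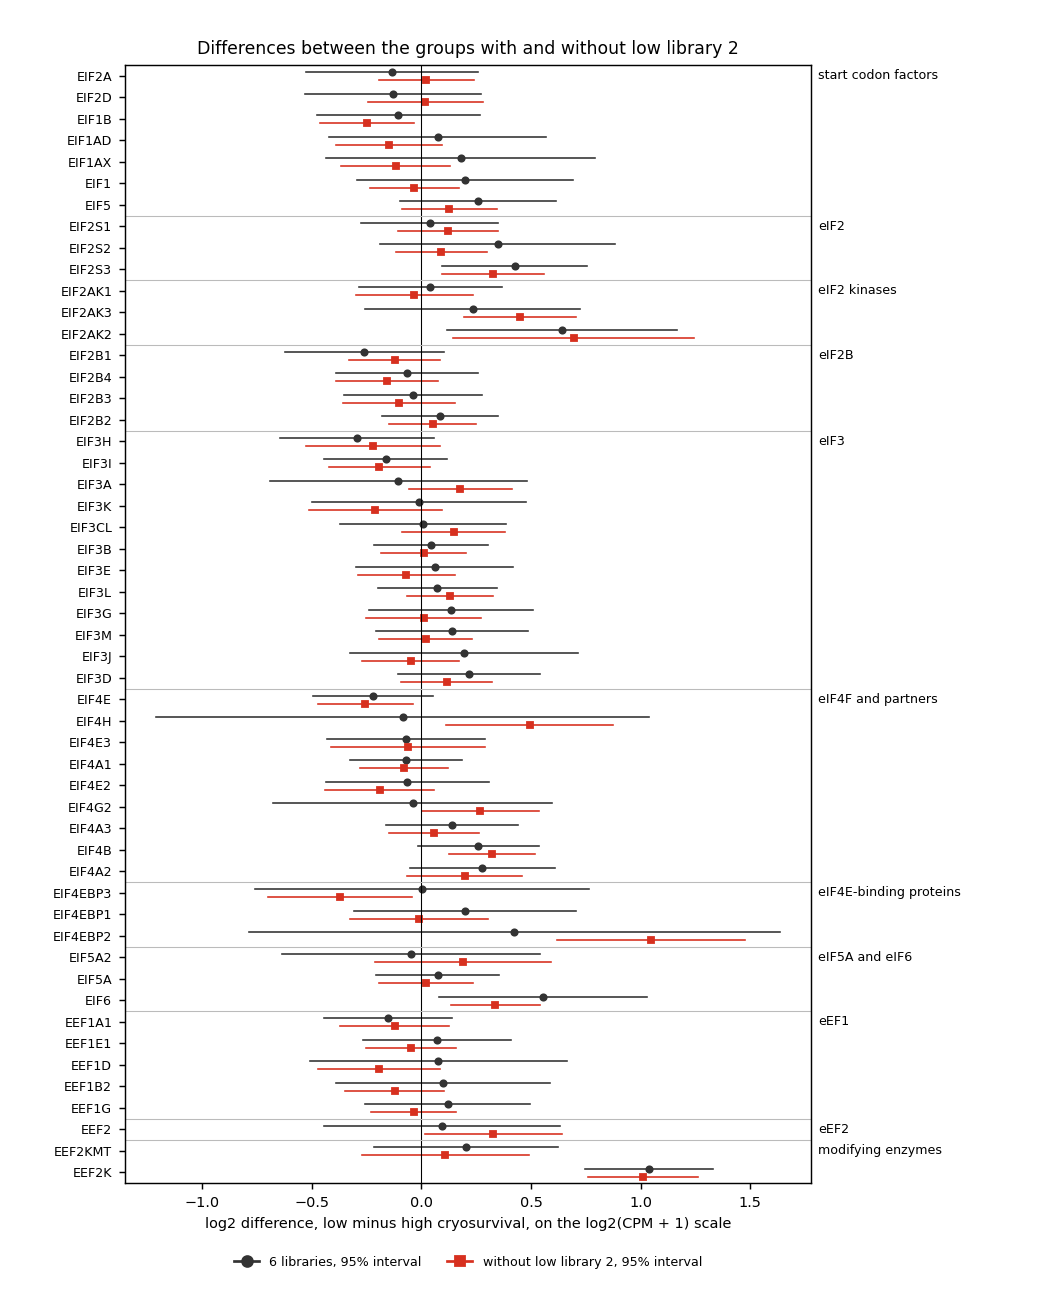
Log2 differences of the 52 members, low minus high cryosurvival, with 95% intervals from limma. Dark circles use 6 libraries and red squares leave out low library 2. With 6 libraries the intervals of EEF2K, EIF2S3, EIF6 and EIF2AK2 lie above 0, and EEF2K has the largest difference, 1.04.

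Counting members whose libraries did not overlap between groups, 10 of 52 had all low libraries above all high ones, or 19.2%, against 10.4% of all genes. In 5 of 52 all low libraries were below, or 9.62%, against 10.6% of all genes. The 10 were EEF2K, EIF6, EIF2AK2, EIF2S3, EIF2S2, EIF4A2, EIF4B, EIF5, EIF3D and EIF3B, and the 5 were EIF3H, EIF3I, EIF2B1, EIF4E and EIF4A1. With 3 libraries a group, the smallest two-sided p of an exact permutation test is 0.1, so none was made per gene.

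Without low library 2, limma called 5 of 52 members higher in low and 0 lower. Over all genes this fit called 8.15% higher and 5.48% lower. The 5 were EEF2K, EIF4EBP2, EIF2AK3, EIF6 and EIF4B, and their log2 differences ran from 0.32 for EIF4B to 1.05 for EIF4EBP2. The fit has 2 low libraries, and 18 of 52 members had the opposite sign of log2 difference in it, as did 2460 of all 9537 genes. With high library 3 left out as well, 2 of 52 members were called, EEF2K and EIF4EBP2, where 5.19% of all genes were called higher and 2.42% lower.

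High library 3 departed from its group in part as low library 2 did. Across the 52 members, the departure of low library 2 from low libraries 1 and 3 and that of high library 3 from high libraries 1 and 2 had a Pearson r of 0.50 and a Spearman rho of 0.37. Over all 9537 genes these were 0.37 and 0.34. The points are genes of the same libraries and not independent, so no p is given. EIF4EBP2, EIF4H, EIF4G2, EIF3A and EEF2 were low in both, with departures of low library 2 of -1.87, -1.74, -0.92, -0.85 and -0.70 in that order. EIF4EBP3, EIF1AX and EIF3K were high in both, and the latter 2 departed by 0.89 and 0.60 in low library 2. The departures had the same sign in 33 of 52 members, or 63.5%, against 61.5% of all genes. EEF1D and EIF4EBP1 were among those that went opposite ways, by 0.82 and 0.63 in low library 2 and by -0.23 and -0.34 in high library 3. EEF2K departed by 0.09 in low library 2 and by 0.18 in high library 3.

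**Figure D4:**
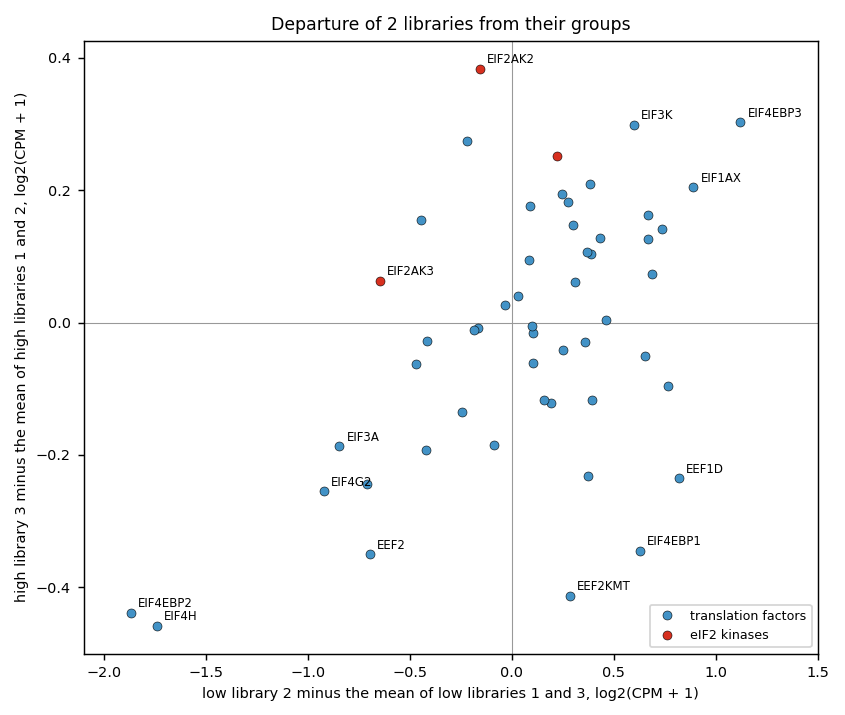
Each point is 1 of the 52 members. The x axis gives low library 2 minus the mean of low libraries 1 and 3, and the y axis high library 3 minus the mean of high libraries 1 and 2, both in log2(CPM + 1). EIF4EBP2 and EIF4H are at the lower left, and EIF4EBP3 is farthest to the right.

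Other genes of translation and its control were taken from a fixed list of 66 symbols, of which 57 were measured. Their median log2 difference was 0.04, with 32 higher and 25 lower, and limma called 0. At an unadjusted p below 0.05 there were 5 higher and 2 lower, or 8.77% and 3.51%, against 6.27% and 5.7% of all genes. In 6 of the 57 all low libraries were above all high ones, and in 6 all were below, or 10.5% each. Over all genes these shares were 10.4% and 10.6%, so separation of the groups was about as frequent as elsewhere. The authors' deposited table called 1 of the 57, PPP1R15A, where it called 1.2% of all genes. PPP1R15A encodes GADD34, which directs the phosphatase that removes phosphate from eIF2 alpha. It was at 78.3, 87.5 and 77.5 CPM in low and 49.1, 45.3 and 53.2 CPM in high libraries, without overlap. Limma gave a log2 difference of 0.71 ± 0.12 (SE) and an adjusted p of 0.142, and 0.0191 without low library 2. The authors' deposited table gave an adjusted p of 0.041. Without low library 2, limma called 6 of the 57 higher and 1 lower, against 8.15% and 5.48% of all genes. They were PPP1R15A, DNAJC3, PDCD4 and the stress-induced genes ATF3, SESN2 and TRIB3 on the higher side, and MTRF1L on the lower, with ATF3, SESN2 and TRIB3 named after their values were seen.

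Around eIF2 phosphorylation 7 of 12 measured genes were higher in mean and 5 lower. At an unadjusted limma p below 0.05, 3 were higher, or 25%, against 6.27% of all genes, and 0 lower, against 5.7%. This list is short and was chosen with earlier results of these data known. Beside PPP1R15A the higher genes were DNAJC3, an inhibitor of eIF2 kinases, and DDIT3, the stress transcription factor CHOP. DNAJC3 was at 177, 191 and 187 CPM in low and 126, 137 and 139 CPM in high libraries (0.46, adjusted p = 0.202). DDIT3 was at 50.6, 49.2 and 54.2 CPM in low and 35.9, 38.8 and 46.7 CPM in high libraries (0.34, adjusted p = 0.398). ATF4, the transcription factor translated when eIF2 is phosphorylated, was at 721, 733 and 660 CPM in low and 786, 787 and 788 CPM in high libraries. Each low library of ATF4 was below each high one (-0.16, interval -0.43 to 0.11, adjusted p = 0.681).

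Among genes of mRNA binding and cap regulation, PABPC1, the main cytoplasmic poly(A)-binding protein, was at 2232, 2162 and 2075 CPM in low and 1807, 1757 and 1686 CPM in high libraries. PDCD4, an inhibitor of the eIF4A helicase, was at 16.7, 12.7 and 14.0 CPM in low and 10.5, 9.54 and 8.15 CPM in high libraries. Neither gene overlapped between groups, with log2 differences of 0.30 and 0.57 (adjusted p = 0.352 and 0.229). PDCD4 was called without low library 2 (adjusted p = 0.0315). Of the 9 mitochondrial translation factors 6 were lower in mean, among them MTIF3, an initiation factor, at 25.7, 20.4 and 23.2 CPM in low and 27.9, 29.3 and 34.1 CPM in high libraries. MTRF1L, a release factor of the mitochondrial ribosome, was at 59.5, 65.9 and 59.7 CPM in low and 76.3, 75.7 and 77.3 CPM in high libraries. Both were without overlap (-0.38 and -0.31, adjusted p = 0.356 and 0.349). TUFM, the mitochondrial counterpart of eEF1A, was at 336 to 453 CPM in low and 391 to 413 CPM in high libraries.

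The 6 measured mTORC1 genes had log2 differences from -0.20 to 0.14, with 0 at an unadjusted p below 0.05 with all libraries. The low end turned without low library 2, RPS6KB1 going from -0.20 to 0.27 and RPTOR from -0.15 to 0.36 (unadjusted p = 0.0304, adjusted p = 0.106 for RPTOR). RHEB, the activating GTPase of mTORC1, was at 106 to 119 CPM in low and 103 to 108 CPM in high libraries. The 8 genes of termination, recycling and re-initiation ran from -0.08 for the release factor GSPT1 to 0.26 for GSPT2, or 0.062 and 0.15 for these genes without low library 2. The 8 genes of factor maturation, which are 7 genes of the hypusine and diphthamide pathways and the selenocysteine elongation factor EEFSEC, ran from -0.34 for DPH2 to 0.14 for DOHH, which completes the hypusine of eIF5A. DPH1 and DPH2, of the diphthamide pathway that modifies eEF2, had log2 differences of 0.08 and -0.05 without low library 2, against -0.27 and -0.34 with it, and DOHH had -0.11. With all libraries the lowest adjusted p over these 3 lists was 0.704 by limma.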

How the data were processed

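The labels' protocols name column purification of total RNA, DNase treatment and the NEBNext Ultra II RNA kit. The submitters' processing notes list the tools DESeq 1.12.1, HTSeq 0.5.4p2, SAMtools 0.1.18, TopHat2 2.0.8 with Bowtie2 2.1.0, and Cufflinks 2.1.1, but no roles for them. For the build, annotation, use of strand and any filter, the sources used here state nothing. Coordinates are therefore not printed. Reads of overlapping or antisense genes could not be told apart.

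The authors deposited CPM per library with 3 decimals and decimal commas, a log2 fold of high over low, whose sign was turned here, and p-values per the file headers. CPM is read from the values: within 0.05 read, each library had 1 step of which 100% of its values up to 1000 CPM were multiples, which gave the recovered reads. The lowest mean over 6 libraries was 0.737 CPM.

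Groups follow the labelled cryosurvival. Limma 3.58.1 in R 4.3.3 was fitted to log2(CPM + 1) of all 9537 genes and 6 libraries without covariate, and Benjamini-Hochberg adjustment ran over all genes at 0.05. A difference on this scale understates the change of low genes. The fit was tested on simulated data in which every library had the same spread and none stood apart. That test does not show how the fit behaves with a library like low library 2. Alternatives were a pseudocount of 0.1, a mean of at least 5 CPM, limma-voom on the recovered reads with the scaled library sizes, a replicate block and each library left out. Median-of-ratios scaling, and leaving out low library 2 with high library 3, were chosen after seeing the data.

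The members and lists were chosen with earlier results of these data known. Values in every library are given for the member with the highest mean of each role, members at an unadjusted p below 0.05 or called by the authors, the 4 with the largest log2 difference in each direction, the eIF2 kinases, and the 4 with 1 library farthest from the median of the other 5. EEF1D, EIF4A2, EIF4B, EIF4G2 and ranges for further members were added after their values were seen. No sequences are printed because none were in the sources used here. The labels name no batch.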

Additional observations from a re-analysis of the deposited data

How the results depend on the processing

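Leaving out 1 library at a time gave 0 to 1300 genes and 0 to 5 members called, with every call in the fit without low library 2. The same fits gave kinase medians of 0.092 to 0.45, the lowest without low library 1. They gave log2 differences of -0.032 to 0.13 for EIF2AK1, -0.38 to 0.49 for EIF4H, -0.023 to 0.33 for EEF2 and -0.012 to 0.33 for EIF4EBP1, which changed sign. Without both low library 2 and high library 3, 726 genes and 2 members were called, the kinase median was 0.47, and the log2 differences were -0.028 for EEF2KMT (0.067 to 0.313 with 1 library left out), -0.13 for EIF4EBP1, 0.34 for EIF4H and -0.018 for EIF5A. A pseudocount of 0.1 called 7 genes and 1 member, EEF2K, a mean of at least 5 CPM, which leaves out EEF2K, called 7 genes and 0 members, and median-of-ratios scaling called 5 genes and 0 members. Limma-voom called 0 genes. The cause of these changes was not tested. The median of the 49 factors ran from 0.01 to 0.12 with 1 library left out. The replicate block called 0 genes and 0 members (EEF2K adjusted p = 0.495). Departures of same-numbered libraries of the groups had correlations of 0.12, -0.26 and -0.31, and no library correlated best with its own number. Departures within a group of 3 depend on each other, and low library 2 stood apart. These correlations therefore cannot decide whether the numbers pair the libraries. The planned count models and trimmed-mean scaling were not run. Few reads limit EEF2K, EIF2AK2 and EIF5A2.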

Other observations

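Ratios of 2 members within a library do not depend on its scaling, and 3 were computed after the values were seen. EIF3J over EIF3A, in CPM, was 0.295, 0.890 and 0.298 in low libraries 1, 2 and 3, against 0.333, 0.311 and 0.404 in high libraries 1, 2 and 3. EIF2S2 over EIF2S1 was 3.57, 7.05 and 3.41 in low and 3.54, 3.51 and 3.63 in high libraries. In both ratios low library 2 was far above the other 5. These were close together for EIF2S2 over EIF2S1, while for EIF3J over EIF3A high library 3 was the highest of them, at 0.404.

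EIF4EBP2 over EIF4EBP1 was 1.03 and 0.768 in low libraries 1 and 3, against 0.393, 0.473 and 0.402 in high libraries and 0.152 in low library 2. The remaining low libraries therefore lay above all high libraries and low library 2 below them, as for EIF4EBP2 by itself.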
